A study of Callorhinchus milii with 12 samples.

Results

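Of the 12 libraries of this series, 4 came from the pancreas and spleen of the elephant shark Callorhinchus milii, a cartilaginous fish, and they were chosen here by their tissue label: 2 pancreas and 2 spleen libraries, with 1 adult female and 1 adult male library of each tissue. The other libraries of the series were 6 low-coverage and 2 deep-sequenced livers, also from adults. The samples were obtained from fishermen, after the animals had died. The assay was whole-genome bisulfite sequencing (WGBS-seq), in which unmethylated cytosines are converted and read as thymine. The libraries were made by post-bisulfite adapter tagging (PBAT), which attaches adapters after this conversion. The header lines of the 4 reports name the same run folder and lane, and the livers come from another folder, so pancreas and spleen could be compared with each other within a run. Neither the labels nor the paper say whether the pancreas and spleen of a sex came from the same animal.

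In jawed vertebrates most cytosines in CG dinucleotides are methylated. Because the dinucleotide reads the same on both strands, a newly made strand can be methylated to match the old one when a cell divides. Cytosines in other contexts are written CHG and CHH, where H is any base but guanine, and are rarely methylated in most vertebrate somatic cells. Bisulfite treatment that leaves an unmethylated cytosine unconverted gives the same call as methylation, so a low non-CG level is also used as an upper limit on failed conversion. The pancreas secretes digestive enzymes and hormones such as insulin. The spleen filters blood and holds lymphocytes, and in cartilaginous fishes it also forms blood cells. The deposited reports hold genome-wide totals without positions or genes, and so the tissue labels could not be checked against markers.

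The female pancreas library held 19255 reads, of which 7637 aligned to a unique place. The male pancreas library held 21153 reads, of which 8013 aligned uniquely. The female spleen was deeper, with 13733 unique alignments from 32722 reads, and the male spleen was the deepest, with 21738 from 55581 reads. The depth in CG calls thus ran from 21225 in the female pancreas and 22688 in the male pancreas to 36778 in the female spleen and 58906 in the male spleen. On pooled calls the male spleen therefore weighed most within its tissue.

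The first comparison was of CG methylation between the tissues. CG dinucleotides were mostly methylated in all 4 libraries, the male pancreas had the highest level and the male spleen the lowest, and the tissues differed between the male libraries but not detectably between the female libraries. The female pancreas gave 14084 methylated and 7141 unmethylated CG calls, which is 66.4% with a 95% interval of 65.3% to 67.4%. In the male pancreas the counts were 15372 and 7316, a level of 67.8% (66.8% to 68.7%). The female spleen had 24523 methylated and 12255 unmethylated calls, a level of 66.7% (65.9% to 67.4%). The male spleen had 37634 and 21272, a level of 63.9% (63.3% to 64.5%). The female spleen lay between the pancreas libraries, so that the ranges of the tissues overlapped, and the interval of the male spleen lay below those of the other 3 libraries. These are Wilson intervals on call counts divided by 2.49, the design effect of CG calls that share a read. A design effect is the factor by which shared reads widen the variance of a level over that of independent calls. It was 2.42 and 2.49 in the deep-sequenced female and male livers, where the calls of each read are listed, and the larger was used. All intervals cover counting error only.

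**Figure D1:**
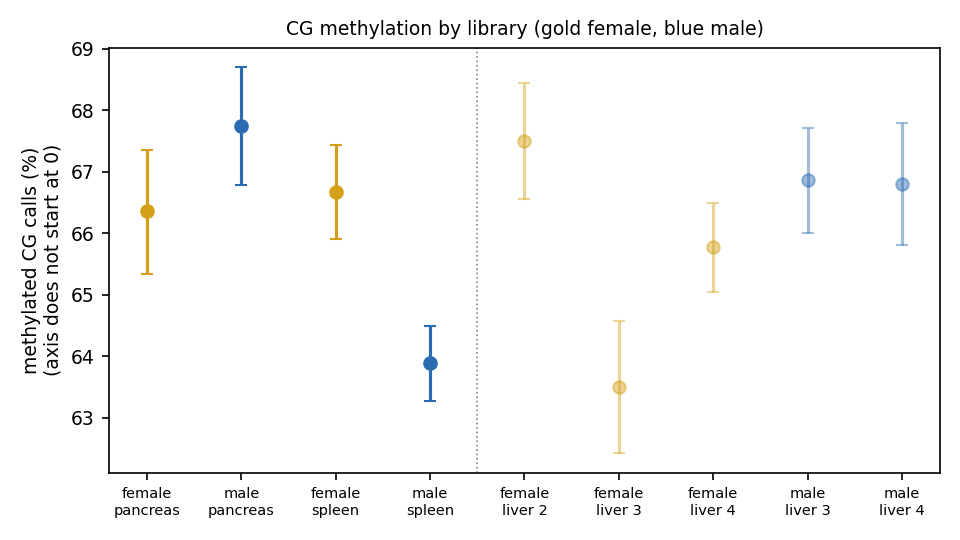
CG methylation in percent of CG calls (vertical axis, not starting at 0) in the 4 pancreas and spleen libraries and, right of the dotted line, in 5 low-coverage livers of another run; a sixth liver with 230 reads is not drawn. Points are libraries, gold for females and blue for males, and bars are 95% Wilson intervals with the design effect of 2.49. The male spleen at 63.9% lies below the other pancreas and spleen libraries, which lie between 66.4% and 67.8%.

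Within the males, CG methylation was 3.87 percentage points higher in the pancreas than in the spleen (95% interval 2.73 to 5.00), with an adjusted p of 1.24e-10 in Fisher's exact test, two-sided, on the counts divided by the design effect. Adjustment was by the Benjamini-Hochberg method over 9 tests, those of 3 contexts in females, males and pooled. Within the females the pancreas lay slightly below the spleen, a difference of -0.323 points with an interval of -1.58 to 0.935 (Fisher's exact test, adjusted p = 0.624). At this depth a difference of about the size seen in the males lay outside the interval for the females. Only differences from -1.58 to 0.935 points, of either sign, did not. On pooled calls the pancreas had 67.1% and the spleen 65.0%, a difference of 2.12 points (1.28 to 2.96; Fisher's exact test, adjusted p = 2.07e-06). These tests compare libraries and not tissues, since each sex had 1 library per tissue and pooled calls carry no spread between libraries. With 1 percentage per library, the pancreas mean was 67.1% ± 0.989 (SD, n = 2) and the spleen mean 65.3% ± 1.97 (SD, n = 2). Their difference of 1.77 points was smaller than the SD between the spleens (two-sided exact permutation test over 6 splits, p = 0.667). With 2 libraries against 2 this test cannot give a p under 0.333. Without the male spleen the difference of the means was 0.376 points.

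The difference between the tissues itself differed between the sexes. Pancreas minus spleen was 4.19 points greater in the males than in the females, with a 95% interval of 2.49 to 5.88 points that includes the design effect. For this interval to reach 0, the clustering of calls on reads would have had to inflate the variance 15.2 times over that of independent calls. For the difference within the males the factor was 28.7. Duplicate reads and the spread between animals or library preparations enter neither the interval nor these factors, which therefore do not measure them. In point values the sexes lay in opposite order in the tissues. The female pancreas was below the male pancreas, a difference of -1.40 points (-2.79 to -0.0111), and the female spleen above the male spleen by 2.79 points (1.82 to 3.77). The pancreas interval excluded 0 only narrowly, and a slightly larger design effect would bring it to 0. Neither interval is adjusted for the number of tests. As a description of how far libraries of 1 tissue lie apart, 5 low-coverage livers sequenced in the other run ranged from 63.5% to 67.5%. This span of 4.00 points was about as wide as the gap between the male pancreas and male spleen. It includes counting error, and is the widest gap among 5 libraries rather than a difference between 2. The livers also aligned less well, with 24.2% to 27.3% of reads aligned uniquely, against 37.9% to 42.0% in pancreas and spleen. The sixth low-coverage liver, with 230 reads, was left out of every liver range. With 1 animal per sex and tissue, sex and single animal cannot be told apart.

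The second comparison was of methylation outside CG dinucleotides. It was low in all 4 libraries and was higher in the pancreas than in the spleen in each sex, in the CHG as well as the CHH context. In the CHG context 449 of 47793 calls were methylated in the female pancreas, which is 0.939% (95% Wilson interval 0.857% to 1.03%). The male pancreas had 556 of 48274, or 1.15% (1.06% to 1.25%). The female spleen had 655 of 84052, or 0.779% (0.722% to 0.841%), and the male spleen 1212 of 130668, or 0.928% (0.877% to 0.981%). The tissues did not overlap, although the female pancreas exceeded the male spleen by 0.0119 points only. In the CHH context the female pancreas had 1078 methylated calls of 139779, or 0.771% (0.727% to 0.818%). The male pancreas had 1427 of 137832, or 1.04% (0.983% to 1.09%), the highest of the 4. The female spleen had 1704 of 251893, or 0.676% (0.645% to 0.709%), the lowest, and the male spleen 2932 of 380477, or 0.771% (0.743% to 0.799%). Here the female pancreas and the male spleen were level, 0.000606 points apart.

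**Figure D2:**
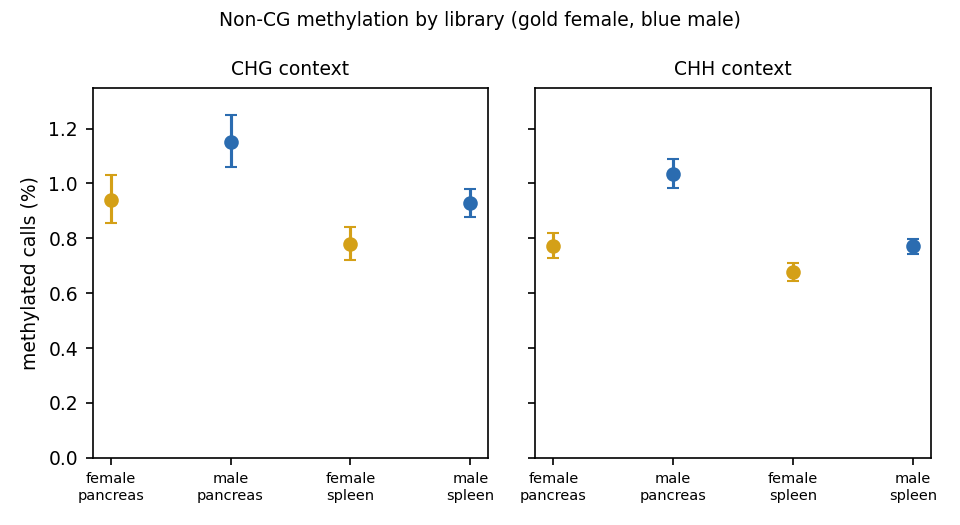
Methylated calls in percent of all calls (vertical axis) in the CHG context (left) and the CHH context (right) for the 4 libraries. Points are libraries, gold for females and blue for males, and bars are 95% Wilson intervals that take calls as independent. In each context the male pancreas is highest, at 1.15% and 1.04%, and the female spleen lowest, at 0.779% and 0.676%.

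Within the females, pancreas exceeded spleen by 0.160 points in CHG (95% interval 0.0552 to 0.265), a ratio of 1.21, with an adjusted p of 0.00258 in Fisher's exact test over the same 9 tests. In CHH it did so by 0.0947 points (0.0388 to 0.151), a ratio of 1.14 (Fisher's exact test, adjusted p = 0.00101). Within the males the CHG difference was 0.224 points (0.116 to 0.333), a ratio of 1.24 (Fisher's exact test, adjusted p = 4.42e-05). The CHH difference in the males was the largest of the within-sex differences outside CG, at 0.265 points (0.204 to 0.325) and a ratio of 1.34 (Fisher's exact test, adjusted p = 1.71e-18). On pooled calls the differences were 0.177 points for CHG (Fisher's exact test, adjusted p = 4.5e-06) and 0.169 points for CHH (Fisher's exact test, adjusted p = 4.11e-16). These tests too compare libraries and not tissues, and those on pooled calls carry no spread between libraries. As means of libraries, CHG was 1.05% ± 0.150 in the pancreas and 0.853% ± 0.105 in the spleen (SD, n = 2 each), and CHH 0.903% ± 0.187 and 0.724% ± 0.0666 (SD, n = 2 each). Both mean differences had p = 0.333 in the two-sided exact permutation test, the smallest it can give here. Without the male pancreas they fell to 0.0861 points in CHG and 0.0477 points in CHH.

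The non-CG tests take calls as independent, and the reports do not say how methylated non-CG calls are spread over reads. An aligned read of the pancreas libraries carried a mean of 6.14 CHG and 17.7 CHH calls. When counts were scaled to 1 call per aligned read, the interval of the CHH difference within the males still excluded 0 (0.0144 to 0.515). Those of the other CHG and CHH differences, within either sex or pooled, did not. These intervals are not adjusted for the number of tests. With all tests scaled and adjusted together, the CHH difference within the males would not pass the threshold either. In the male pancreas the excess over the rate of the male spleen came to 474 methylated non-CG calls, as many as 20.4 of its 8013 aligned reads would hold at the mean of 23.2 non-CG calls per read. In the female pancreas the excess was 210 calls, or the non-CG calls of 8.54 of 7637 reads. These read numbers restate the difference in non-CG level by arithmetic and say nothing further about the reads. Whether the excess lay on few reads or on many could not be seen in totals.

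**Figure D3:**
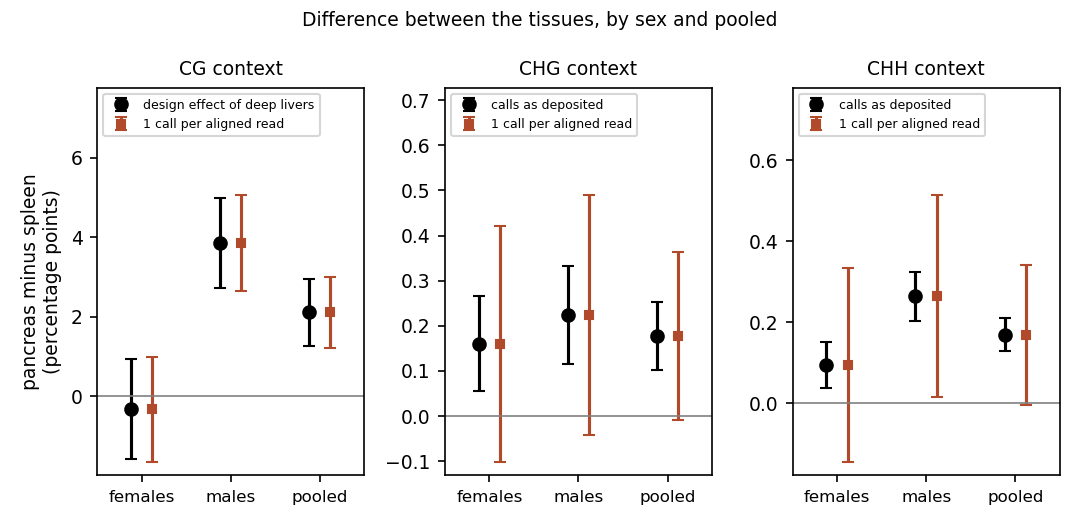
Pancreas minus spleen in percentage points (vertical axis, a scale of its own in each panel) for the CG, CHG and CHH contexts, in females, males and on pooled calls. Circles carry 95% intervals from counts divided by the design effect for CG and from counts as deposited for CHG and CHH, and squares carry intervals from counts scaled to 1 call per aligned read. With the wider intervals, CG in males and pooled and CHH in males exclude 0. No interval is adjusted for the number of tests.

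The CHH difference between the tissues was greater in the males than in the females by 0.170 points (0.0878 to 0.252), and the ratio of pancreas to spleen was 1.18 times greater (1.07 to 1.30), with calls taken as independent. At 1 call per aligned read the interval was -0.176 to 0.516 and no longer excluded 0, and it reaches 0 once clustering on reads inflates the variance 4.28 times. In the CHG context the sexes could not be told apart, at 0.0640 points (-0.0869 to 0.215). In both tissues and both contexts the female library lay below the male library. In the pancreas, female minus male was -0.212 points in CHG (-0.341 to -0.0837) and -0.264 points in CHH (-0.335 to -0.194). In the spleen it was -0.148 points in CHG (-0.227 to -0.0693) and -0.0941 points in CHH (-0.137 to -0.0517). These intervals between the sexes also take calls as independent. At 1 call per aligned read they would be wider, and they were not computed on that footing. In these 4 libraries the non-CG levels thus had the same order of tissues in each sex and of sexes in each tissue. The CG point values did not, but the CG difference within the females had an interval that included 0 (-1.58 to 0.935). With 1 library per sex and tissue, these are orders of libraries, and sex and single animal cannot be told apart. In the livers of the other run CHG ranged from 0.675% to 0.715% and CHH from 0.516% to 0.582%, below all 4 pancreas and spleen libraries, and there tissue and run cannot be told apart. Among these livers the CHG levels of the males, 0.683% and 0.713%, lay within the range of the females. Their CHH levels, 0.582% and 0.564%, lay above those of the females.

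The CG levels were also set beside the conversion of each library. If all non-CG methylation is taken as failed conversion, the conversion efficiency was 99.2% in the female pancreas, 98.9% in the male pancreas, 99.3% in the female spleen and 99.2% in the male spleen. With each CG level corrected for the non-CG level of its own library, the levels were 66.1%, 67.4%, 66.4% and 63.6% in the same order. The difference within the males was then 3.81 points and that within the females -0.363 points. Failed conversion and non-CG methylation cannot be told apart in these counts.

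The third comparison was of the reads themselves, since libraries that align differently may sample different parts of the genome, which totals cannot show. The pancreas libraries aligned slightly less well than the spleen of the same sex, and more of their reads had several equally good places. Uniquely aligned reads made up 39.7% in the female pancreas and 42.0% in the female spleen, a difference of -2.31 points (-3.18 to -1.43; Fisher's exact test, adjusted p = 1.48e-06 over 6 tests of reads). In the males the shares were 37.9% and 39.1%, a difference of -1.23 points (-2.00 to -0.460; Fisher's exact test, adjusted p = 0.00219). Ambiguous reads made up 2.49% and 2.22% in the female pancreas and spleen, a difference of 0.272 points (0.000314 to 0.544; Fisher's exact test, adjusted p = 0.0497). In the males they made up 3.30% and 2.79%, a difference of 0.509 points (0.232 to 0.786; Fisher's exact test, adjusted p = 0.000449). In ambiguous reads the female and male libraries lay further apart than the tissues. Female minus male was -0.812 points in the pancreas and -0.575 points in the spleen, and both female libraries had fewer such reads than both male libraries. As means of libraries the tissues overlapped in both shares, with p = 0.667 for each in the two-sided exact permutation test.

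**Figure D4:**
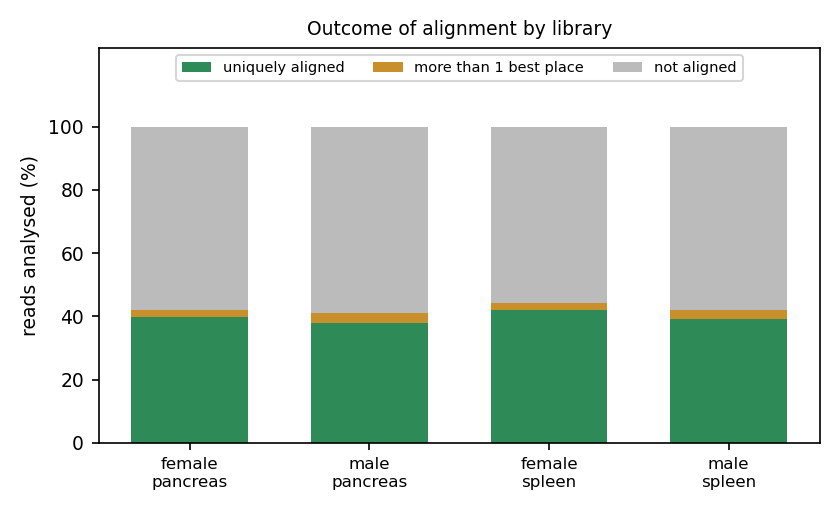
Outcome of alignment as a percentage of the reads analysed (vertical axis) in each of the 4 libraries, stacked as uniquely aligned, aligned to more than 1 best place, and not aligned. Uniquely aligned reads range from 37.9% in the male pancreas to 42.0% in the female spleen, and reads with no alignment make up the rest but for 2.22% to 3.30%.

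Aligned reads of pancreas and spleen were alike in the number of cytosines called, with 27.3 and 26.1 calls per read in the female and male pancreas and 27.1 and 26.2 in the female and male spleen. Of these calls, CG made up 10.2% and 10.9% in the pancreas and 9.87% and 10.3% in the spleen. CG calls per aligned read were 2.78 and 2.83 in the pancreas and 2.68 and 2.71 in the spleen, so that both pancreas libraries lay above both spleens. This difference of 0.111 calls per read between the means had p = 0.333 in the exact permutation test. The male pancreas, highest in CG, CHG and CHH methylation, also had the lowest share of unique alignments and the largest share of CG among its calls. The male spleen, lowest in CG methylation, came next in both, with 39.1% of reads aligned uniquely and 10.3% of calls in CG. Whether these read properties have a part in the methylation differences was not tested. Reads came from the complementary strands in nearly equal shares, with 49.6%, 49.4%, 50.8% and 50.1% from the top strand in the female pancreas, male pancreas, female spleen and male spleen.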

How the data were processed

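The authors trimmed the reads with TrimGalore (v0.4.0) and aligned them with Bismark (v0.14.3, PBAT option, Bowtie) to the larger scaffolds of elephant shark assembly 6.1.3. For low-coverage libraries they deposited the Bismark mapping reports, which hold counts of reads and of methylated and unmethylated cytosine calls per context, on MiSeq data, without removal of duplicates. Duplicate reads would make intervals too narrow. The percentages in the deposited reports are rounded, and were recomputed here from the counts, which were read by their line labels. For the pancreas and spleen libraries the non-CG counts in the paper's supplementary table differ from those of the deposited reports, while the CG counts are equal. All non-CG values here rest on the deposited reports. The comparison of the tissues was not repeated on the non-CG counts of the supplementary table. For the deep-sequenced livers the deposited calls were used only for the design effect, the squared deviations summed by read over the variance of independent calls. That script was tested on 40000 simulated reads. Aligned reads of the pancreas and spleen libraries carried a mean of 2.68 to 2.83 CG calls. In the deep-sequenced female and male livers, reads with at least 1 CG call carried 2.37 and 2.40. The design effect of the pancreas and spleen libraries may therefore be larger.

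Libraries were grouped by the tissue and sex in the labels. Comparisons used Fisher's exact test, the exact permutation test and Wald intervals of differences (Python 3.11.15, NumPy 2.4.6, SciPy 1.17.1, Matplotlib 3.10.9). Alternatives were other weights of libraries, corrections for non-conversion, other design effects and each library left out. The comparison and the tests were chosen with earlier results of these data known. The rule on named genes applied to none, since the reports name no gene. Duplicates, shared animals and the cell makeup of the tissues were not analysed here.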

Additional observations from a re-analysis of the deposited data

Results flagged for a closer look

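The difference in CG methylation between pancreas and spleen was 4.19 percentage points greater in the males than in the females, by the interval of the difference of differences (2.49 to 5.88). The pancreas was above the spleen by 3.87 points in the males, against -0.323 points in the females. In CHH the male difference exceeded the female by 0.170 points (0.0878 to 0.252), with calls taken as independent, and at 1 call per aligned read this interval was -0.176 to 0.516. Both compare 4 libraries, 1 for each sex and tissue.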

How the results depend on the processing

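Of 42 alternative values of the differences within sex, on pooled counts and between the sexes, 35 kept their direction and their side of the threshold. Some of these could not have changed, since a smaller design effect only narrows the CG intervals that already exclude 0. The sum of CHG and CHH is also counted under both contexts, with the same values. The count is therefore not a measure of stability. The 27 alternatives of tissue means cannot pass the threshold and say nothing about stability beyond direction, which 26 kept. With counts scaled to 1 call per aligned read, the differences within females (0.160 points in CHG, adjusted p = 0.237 in Fisher's exact test, and 0.0947 points in CHH, adjusted p = 0.501), within males in CHG (0.224 points, adjusted p = 0.111) and on pooled calls (0.177 points in CHG, adjusted p = 0.0635, and 0.169 points in CHH, adjusted p = 0.0564) no longer passed. Nor did the 0.170 points by which the CHH difference was greater in the males (interval -0.176 to 0.516). This scaling keeps values and leaves fewer counts. Each adjusted p under it replaced 1 test and kept the other tests of the family unscaled. CHH in the males passed (Fisher's exact test, adjusted p = 0.0358) only on that footing. With all tests of the family scaled at once it would not pass, and neither would any other CHG or CHH difference. The same scaling, chosen for CG after the values were seen, changed no CG call. With CHG and CHH added, the difference was 0.143 points greater in the males (0.0706 to 0.215), an interval that excludes 0 where CHG alone did not.

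Leaving out each library in turn gave mean differences of 0.376 to 3.17 points in CG, 0.0861 to 0.298 in CHG and 0.0477 to 0.312 in CHH. The lowest CG value was without the male spleen, and the lowest CHG and CHH values were without the male pancreas. For uniquely aligned reads they ran from -3.20 to -0.339 points. For ambiguous reads they ran from -0.0154 to 0.797, and turned sign without the male pancreas. For both shares of reads, leaving out libraries was an alternative added after seeing the data. No paired analysis was possible because the labels give the pancreas and spleen samples no replicate numbers and do not say that they share animals. Sex was used to stratify. Depth limits the CG difference within the females to an interval 2.51 points wide.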
